A study of Arabidopsis thaliana with 30 samples.

Results

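Med-E is 1 of the F6 lines that came, by recurrent selection, from crosses between the Arabidopsis thaliana accessions C24 and Landsberg erecta (Ler). Its members here are the 3 sibling libraries labelled Med-E, 3 of 30 libraries in all, and they were compared with the mid-parent, the mean of the 3 C24 and 3 Ler libraries. The labels give no treatment, and they name no transgene or introduced allele for any line. All seedlings were stratified for 3 days at 4 °C, grown on MS medium with 1% sucrose in days of 16 h light (22 °C) and 8 h darkness (18 °C), and their whole aerial tissue was taken at 15 days. The parental libraries are called biological replicates and the F6 libraries siblings. The labels do not say whether a library came from 1 plant or from a pool, nor at what hour tissue was taken. The p-values thus reflect only the spread among the libraries, which may be technical. That spread was estimated in 1 fit over all 30 libraries. Because whole shoots were used, fewer cells of a type and less RNA per cell cannot be told apart.

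A cross followed by generations of selfing shuffles the parental chromosomes, and a late-generation line carries long blocks from one parent or the other. A gene that differs between the parents can therefore leave the mid-parent by following 1 parent, whereas a level beyond both parents is a different observation. Shoots also adjust many genes to their carbon supply. When sugar runs low, the SnRK1 kinase and its bZIP partner factors switch on genes that recycle carbon and nitrogen, and when sugar is plentiful those genes are kept low.

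The Med-E libraries held 41600826, 43874842 and 44154808 reads, and the parental libraries 43814602 to 47093898. Across genes, log2 levels of Med-E siblings correlated at 0.990 to 0.992, against 0.967 to 0.978 with C24 libraries and 0.974 to 0.980 with Ler libraries. Levels are given as CPM, counts scaled to a common library size and composition, and are not corrected for gene length, so levels were compared only within a gene. Changes are fitted log2 differences ± standard error from edgeR's quasi-likelihood test over 29268 genes, with calls made below 0.05 after Benjamini-Hochberg adjustment. The photosynthesis genes that mark green tissue summed to 123000 to 146000 CPM in Med-E and 124000 to 151000 in the parents. Root markers were not at 0, with sums of 146 to 170 CPM in Med-E, 211 to 262 in C24 and 49.3 to 83.3 in Ler, and most of each sum came from PYK10.

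In Med-E, 2196 genes (7.50% of those tested) were higher than the mid-parent and 2066 (7.06%) were lower, 4262 in all (14.6%). These shares are the background for all counts of list members against the mid-parent below. Against C24 alone 5614 genes (19.2%) were called, and against Ler alone 3748 (12.8%), comparisons that share the Med-E libraries. The parents themselves differed at 7555 genes (25.8%), and 2302 of the 4262 mid-parent calls, 54%, were at such genes. Beyond both parents, that is, called in the same direction against the mid-parent, C24 and Ler, lay 372 genes above (1.27%) and 535 below (1.83%), 907 in all (3.10%). Of these, 69 were at least 2-fold above the mid-parent and 184 at least 2-fold below it. The Med-E libraries did not overlap any parental library at 337 of the 372 and 496 of the 535, where 10.4% of all tested genes had no such overlap. The calls used the same libraries, so this excess was largely built in and is no added support. The totals depended on single libraries: without Med-E sibling 2 there were 2451 mid-parent calls and 490 beyond both parents. Mid-parent calls were 2833 without sibling 1, calls beyond both parents 581 without Ler C, and calls against C24 3520 without C24 C.

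Genes of carbon shortage were low in Med-E, and ASN1 and DIN10 gave the largest falls of all named genes beyond both parents. In the list of sugar-starvation and senescence genes, 7 of 11 tested members fell against the mid-parent and 0 rose, with 4 of the 7 below both parents. The list was chosen with earlier results of these data known, so this count is no independent support. The median log2 difference over the 11 was -1.65, where the median over all tested genes was 0.003. Summed over the list, Med-E libraries held 150 to 246 CPM, Ler libraries 551 to 996 and C24 libraries 697 to 2100, so that all Med-E libraries were below all parental ones while C24 and Ler overlapped. SAG12, a late senescence protease, had too few counts to be tested.

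ASN1, an asparagine synthetase that stores nitrogen when carbon is short, was at 7.10, 2.11 and 4.39 CPM in Med-E siblings 1, 2 and 3, at 170, 230 and 698 in the C24 libraries (A, B, C) and at 15.4, 11.2 and 21.8 in those of Ler. Every Med-E library was below every parental library, and C24 was far above Ler. ASN1 fell by 4.09 ± 0.49 on the log2 scale (adjusted p = 2.38e-05). DIN10, a dark-induced gene of the raffinose synthase family, was at 13.5, 13.3 and 29.1 in Med-E, 73.4, 176 and 500 in C24 and 160, 127 and 475 in Ler, changing by -3.76 ± 0.46 in log2 (adjusted p = 3.74e-05). Both ASN1 and DIN10 overlap another counted gene (AT3G47341 and AT5G20260), so some of their counts may belong to it. BT2, a scaffold protein gene that sugar represses, was at 9.503, 10.8 and 35.2 in Med-E against 111, 128 and 176 in C24 and 116, 101 and 120 in Ler. It fell by 2.75 ± 0.35 (adjusted p = 3.22e-05), with sibling 3 above the other two siblings. DYL1, a dormancy-associated gene, fell by 1.74 ± 0.28 (adjusted p = 0.000319), from 136 ± 82 (SD, n = 3) in C24 and 85.4 ± 19 in Ler to 32.2 ± 7.4. The other falls were DIN1, a dark-induced senescence gene (-1.65 ± 0.34), ORE1, a NAC factor that promotes leaf senescence (-0.74 ± 0.15), and EXO, an extracellular protein gene tied to carbon status (-2.33 ± 0.66). EXO was uneven within the parents, at 5.66, 66.0 and 93.6 in C24 and 9.503, 7.53 and 79.5 in Ler, and its Med-E levels of 5.94, 9.06 and 10.06 overlapped both ranges. NAP, SAG13, SAG21 and DIN2 did not pass, at -1.07, -0.06, -0.90 and -1.04.

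The stretches of 250 bases before the annotated start of 3 of these genes, on the gene's own strand, are shown as examples. All 3 genes lay below both parents with no overlap between libraries. The stretches were read from the TAIR10.1 genome at chr3:17441432-17441681 (ASN1, minus strand), chr3:17910739-17910988 (BT2, minus strand) and chr5:6833314-6833563 (DIN10, plus strand). Capitals mark matches, on either strand, to CACGTG (the G-box, which bZIP and PIF factors bind), TATCCA (a motif of sugar-regulated promoters) and AAATATCT (the evening element of clock-controlled genes).
ASN1: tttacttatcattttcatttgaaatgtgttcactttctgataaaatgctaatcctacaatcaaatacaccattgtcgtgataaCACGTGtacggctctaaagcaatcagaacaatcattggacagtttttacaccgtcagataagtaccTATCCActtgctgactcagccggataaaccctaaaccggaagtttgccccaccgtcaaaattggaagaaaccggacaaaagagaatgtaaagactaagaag
BT2: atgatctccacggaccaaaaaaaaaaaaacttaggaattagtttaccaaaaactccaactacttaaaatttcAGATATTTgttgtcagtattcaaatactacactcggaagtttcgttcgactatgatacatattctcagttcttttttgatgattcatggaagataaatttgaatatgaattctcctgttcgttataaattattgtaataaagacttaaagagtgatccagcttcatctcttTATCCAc
DIN10: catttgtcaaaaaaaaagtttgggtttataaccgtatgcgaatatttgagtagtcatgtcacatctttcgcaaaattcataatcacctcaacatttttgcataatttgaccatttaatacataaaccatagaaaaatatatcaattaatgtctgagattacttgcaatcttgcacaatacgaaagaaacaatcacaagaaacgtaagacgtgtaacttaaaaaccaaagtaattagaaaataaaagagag
The ASN1 stretch held 1 G-box and 1 TATCCA, the BT2 stretch 1 evening element and 1 TATCCA, and the DIN10 stretch none of the letters searched. The stretches of DYL1, of the same list, and IAA29, an auxin-response gene, were also read. That of DYL1 held none of the letters and that of IAA29 held 1 TATCCA. Over 28874 stretches of the same length before tested genes, 6.28% held CACGTG, 13.5% TATCCA and 4.68% AAATATCT, with the motifs free to overlap. Among the 11 tested genes of the list, 2, 3 and 1 held them. These matches are a description of letters only.

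Around the listed genes, further components of the energy response were looked up after these values had been seen, so their counts carry no independent weight either. Of these, only the class II trehalose-phosphate synthase genes were taken as a whole family. Of the 7 class II trehalose-phosphate synthase genes (TPS5 to TPS11), regulators that follow sugar status, 5 fell and 1 rose. TPS11 was at 8.91, 7.61 and 32.0 CPM in Med-E, 111, 111 and 139 in C24 and 105, 101 and 83.5 in Ler, and it fell by 2.73 ± 0.30 (adjusted p = 4.73e-06). TPS8 was at 33.6, 52.0 and 168 in Med-E against 322, 300.5 and 360 in C24 and 230, 212 and 205 in Ler, changing in log2 by -1.65 ± 0.27 (adjusted p = 0.000289). In both genes sibling 3 was the highest Med-E library, and all 3 siblings were still below all 6 parental libraries. TPS9 (-1.70 ± 0.19) and TPS10 (-1.29 ± 0.17) were also below both parents. TPS7 fell by 0.52 ± 0.14 but not without sibling 1 (-0.50, adjusted p = 0.0702) or sibling 2 (-0.52, adjusted p = 0.0673). TPS5, which in contrast to TPS8 to TPS11 is known as a sugar-induced member, rose by 0.66 ± 0.18 (adjusted p = 0.0105), a call that ended without sibling 2 (0.53, adjusted p = 0.103). TPS6 was at -0.25 (adjusted p = 0.105).

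KIN10 and KIN11, the catalytic SnRK1 subunits, were not called, at 0.06 ± 0.06 and -0.05 ± 0.07 (adjusted p = 0.617 and 0.696), KIN10 in an overlap with HYP1. Of the 8 genes looked up here (SnRK1 and bZIP genes and the sugar transporter gene STP1), 5 fell and 0 rose. AKINBETA1, a SnRK1 regulatory subunit, was at 9.57, 7.65 and 13.2 CPM in Med-E, 30.2, 40.2 and 79.8 in C24 and 27.9, 25 and 35.7 in Ler, and fell by 1.92 ± 0.25 (adjusted p = 1.78e-05). Its partners bZIP1 (-1.64 ± 0.23), bZIP63 (-1.23 ± 0.20) and bZIP53 (-0.85 ± 0.19), factors of the low-energy response, fell as well, the first 2 below both parents. STP1, a sugar-repressed hexose transporter gene that overlaps AT1G11270, was at 47.4, 50.5 and 89.2 in Med-E, 158, 260 and 604 in C24 and 158, 135 and 250 in Ler, a fall of 1.99 ± 0.32 (adjusted p = 0.000342). bZIP11 was at 0.23 (adjusted p = 0.428). In a fit of the 9 compared libraries alone, TPS8, TPS11 and STP1 stayed called with larger adjusted p (0.0335, 0.00384 and 0.0153).

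**Figure D1:**
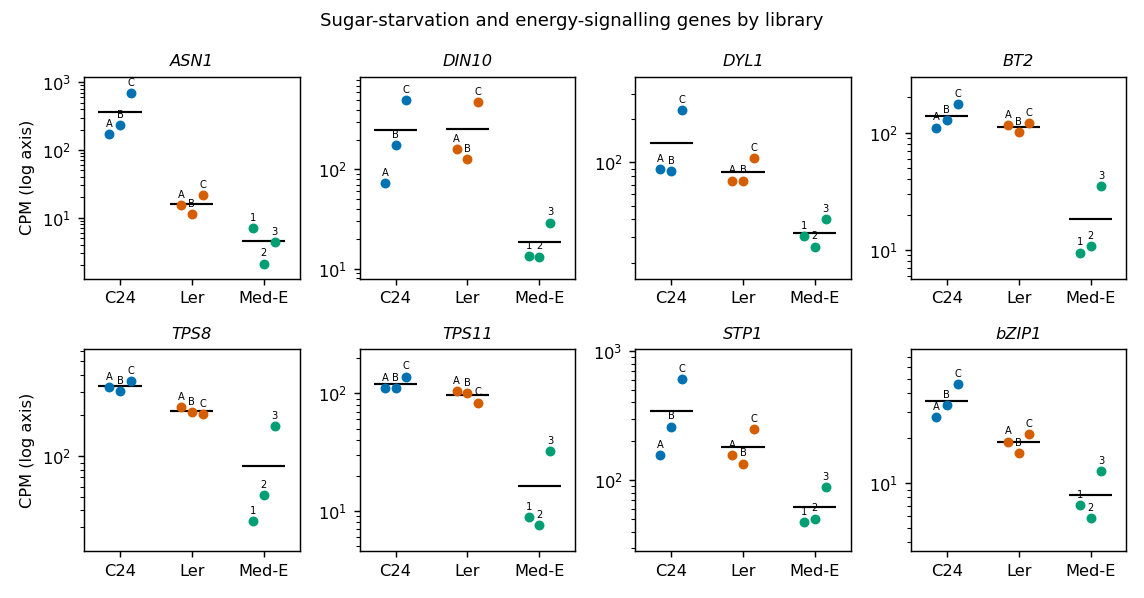
CPM on a log axis in each C24, Ler and Med-E library (points, lettered or numbered by library) with the group mean (black line) for 8 genes of carbon shortage and energy signalling. In each of the 8 panels all 3 Med-E points lie below all 6 parental points, and C24 C is the highest C24 library in each.

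These genes were uneven within the parents, and a measure of the circadian clock differed between the same libraries. In C24 and Ler, library C was the highest at DIN10, STP1 and DYL1. A clock index, the mean log2 CPM of 8 evening genes minus that of 8 morning genes, was -1.78, -1.53 and -0.91 in the C24 libraries (A, B, C), -2.31, -2.20 and -2.05 in Ler and -2.75, -2.57 and -2.17 in Med-E. The Med-E mean of -2.50 ± 0.29 (SD, n = 3) was lower than that of C24 (-1.40 ± 0.45), Ler (-2.18 ± 0.13) and every other line. With this index as a covariate, 4 of the 11 listed genes were still lower and 0 higher (median -0.89). Of the 7 TPS genes 4 were lower, with TPS5 and TPS7 no longer called. Of the 8 SnRK1, bZIP and STP1 genes 4 were lower. Leaving out both parental C libraries was an alternative chosen after seeing the data. There 6 genes of the starvation list (then 12 tested), 4 TPS genes and 5 of the 8 SnRK1, bZIP and STP1 genes were lower.

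The remaining largest falls were BXL1, a beta-xylosidase of the cell wall also known from sugar-starved leaves, XTH22, a touch-induced xyloglucan-modifying enzyme, and 4 less studied genes. BXL1 was at 7.08, 6.76 and 16.1 CPM in Med-E, 47.2, 77.4 and 212 in C24 and 90.11, 76.6 and 166 in Ler, and fell by 3.48 ± 0.40 (adjusted p = 1.28e-05). XTH22 was at 2.84, 4.65 and 14.2 in Med-E, 64.5, 105 and 201 in C24 and 24.8, 18.7 and 92.5 in Ler, a fall of 3.37 ± 0.55 (adjusted p = 0.000611). Each of BXL1 and XTH22 was highest in library C of both parents and in sibling 3 of Med-E. AT4G36850, a PQ-loop protein gene, fell by 3.23 ± 0.34, AT2G33830, a dormancy- and auxin-associated gene, by 3.00 ± 0.35, and AT5G22920, a CHY-type zinc finger gene, by 2.53 ± 0.29. AT5G27345, which is uncharacterised, was low in C24 too. It was at 0.90, 1.15 and 1.08 in Med-E, 1.76, 1.98 and 2.23 in C24 and 54.0, 67.6 and 83.8 in Ler (-3.48 ± 0.23, adjusted p = 1.21e-10).

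Among the genes above both parents with at least 10 CPM and no overlap, the largest rise was in GPT2, a plastid glucose-6-phosphate transporter gene that sugar and strong light induce. GPT2 was at 94.9, 174 and 65.8 CPM in Med-E, 21.7, 9.47 and 3.82 in C24 and between 12.01 and 19.92 in Ler, changing in log2 by 3.00 ± 0.44 (adjusted p = 2.35e-05). AT2G15020, an uncharacterised gene, was at 103, 80.1 and 43.8 in Med-E, 32.6, 6.03 and 2.51 in C24 and 16.1, 16.2 and 5.34 in Ler, a rise of 2.53 ± 0.51 (adjusted p = 0.000906). For both genes the 3 siblings lay above every parental library, and library C was the lowest in each parent. BBX18, a B-box zinc finger regulator of light responses, showed the same order at 54.8, 55.6 and 35.3 in Med-E, 32.3, 10.6 and 4.42 in C24 and 21.8, 23.5 and 10.5 in Ler (1.501 ± 0.39, adjusted p = 0.00697). With the clock index as a covariate GPT2 stayed called, while AT2G15020 (0.98, adjusted p = 0.231) and BBX18 (0.40, adjusted p = 0.563) did not. BBX18 was also not called in a fit of the 9 compared libraries alone (1.495, adjusted p = 0.0695).

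DAR4, a disease-resistance-type receptor gene with a LIM domain, had the steadiest rise. It was at 53.4, 54.0 and 54.5 CPM in Med-E, 38.4, 38.0 and 41.0 in C24 and 2.61, 2.55 and 2.94 in Ler, so that Med-E stood just above C24 and far above Ler (2.39 ± 0.10, adjusted p = 5.01e-15). The cytochrome P450 gene AT1G66540 likewise followed C24 and passed it, at 32.8 ± 4.8 CPM in Med-E, 21.2 ± 6.4 in C24 and 7.30 ± 0.20 in Ler (SD, n = 3), a rise of 1.40 ± 0.17. AT5G15950, an S-adenosylmethionine decarboxylase gene of polyamine synthesis, rose by 1.37 ± 0.16 from 44.1 ± 13 in C24 and 85.3 ± 8.4 in Ler to 159 ± 51. The entry AT5G15948 had nearly the same counts and is the same signal. Among cell-wall synthases, GALS3, a galactan synthase gene, rose by 1.21 ± 0.16 and CSLA10, a cellulose synthase-like gene of mannan synthesis, by 1.40 ± 0.34. The CSLA10 call ended without sibling 2 (1.04, adjusted p = 0.0842), the highest Med-E library at 56.2 against 26.4 and 34.0.

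**Figure D2:**
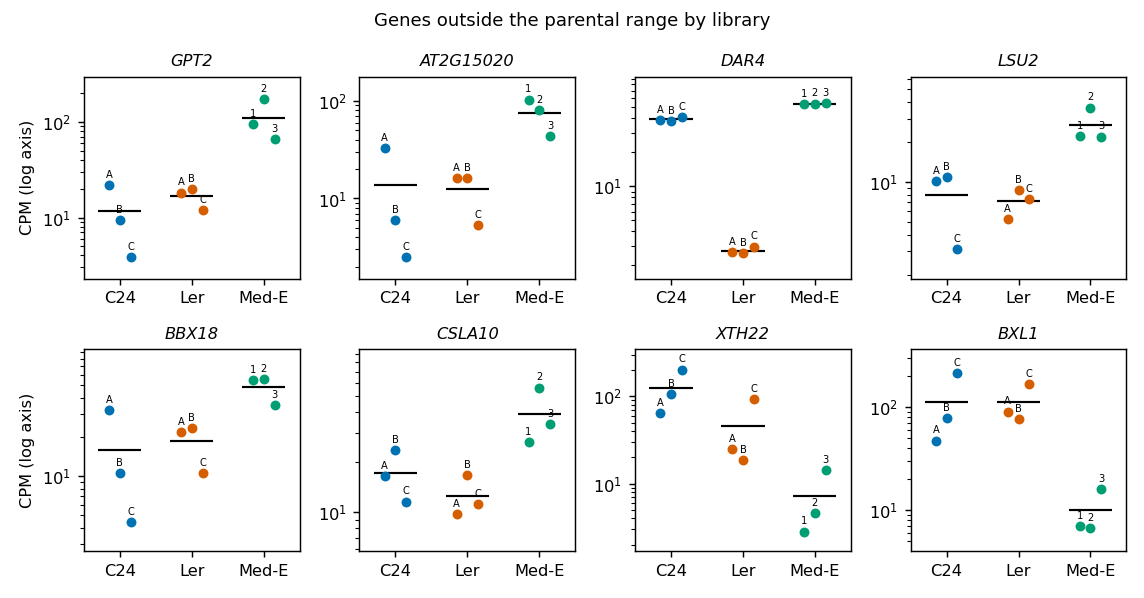
CPM on a log axis in each C24, Ler and Med-E library (points, lettered or numbered by library) with the group mean (black line) for 6 of the largest rises and 2 of the largest falls beyond both parents. In each panel the 3 Med-E points lie on 1 side of all 6 parental points.

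LSU2, a small protein gene induced by sulfur shortage, was at 22.0, 36.3 and 21.9 CPM in Med-E, 10.09, 10.9 and 3.11 in C24 and 5.25, 8.70 and 7.46 in Ler, and rose by 1.82 ± 0.38 (adjusted p = 0.00115). Its relatives and the SDI genes, markers of sulfur shortage, were then looked up with the result for LSU2 known. In all, 5 of the 6 genes LSU1 to LSU4, SDI1 and SDI2 rose against the mid-parent and 0 fell. Only 2 of the 6, LSU2 and LSU4, were above both parents. LSU1, LSU3 and SDI1 were not called against C24, at 0.78, 0.35 and 1.43 (adjusted p = 0.25, 0.663 and 0.147). SDI1, which also restrains glucosinolate synthesis, was at 30.8, 106 and 44.6 in Med-E, 36.2, 24.3 and 6.52 in C24 and 8.02, 10.13 and 4.85 in Ler (2.21 ± 0.57, adjusted p = 0.00753). Sibling 2 was the highest Med-E library at LSU1, LSU2, LSU3, LSU4 and SDI1, and without it 1 of the 6 was called, LSU2, with SDI1 at 1.53 (adjusted p = 0.133) and LSU1 at 0.91 (adjusted p = 0.211). With the clock index as a covariate 1 of the 6 was called, LSU4.

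Among the genes of growth in response to shade, warmth and auxin that were called, more were lower than higher in Med-E. PIF4, a bHLH factor that drives elongation under control of light and temperature, was at 102, 90.0 and 129 CPM in Med-E, 164, 207 and 256 in C24 and 145, 142 and 153 in Ler. All Med-E libraries were below all parental ones, and PIF4 fell by 0.71 ± 0.12 (adjusted p = 0.000204). Its close relative PIF5 fell by 0.44 ± 0.08 (adjusted p = 0.000494), also below both parents. IAA29, an auxin-response gene that PIF4 activates, was at 2.88, 2.76 and 3.097 in Med-E, 12.4, 11.97 and 19.1 in C24 and 10.2, 7.89 and 9.68 in Ler, the clearest separation of the group (-1.99 ± 0.26, adjusted p = 1.76e-05). Both PIF4 and IAA29 stayed called under every alternative run, the clock covariate included. Over the PIF and shade genes 5 of 12 fell and 1 rose (median -0.38). The falls included PAR1, HB-2 and CKX5, the last in an overlap with UBC16, while the bHLH gene PIL1 rose by 0.90 ± 0.21 from 1.22 ± 0.10 CPM in C24 and 1.29 ± 0.24 in Ler to 2.34 ± 0.16 (SD, n = 3), a rise not called with the clock covariate (0.89, adjusted p = 0.0623). PAR1, a small repressor of shade growth, was at -1.75 ± 0.40 with a wide spread in C24 (10.2, 22.8 and 58.1 CPM) and was at -0.55 (adjusted p = 0.508) with the clock covariate.

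Auxin synthesis genes gave 1 call. YUC8, the auxin-synthesis enzyme that PIF4 controls, was at 1.73, 1.25 and 1.64 CPM in Med-E, 1.57, 2.02 and 3.84 in C24 and 2.09, 1.67 and 2.69 in Ler, and the groups overlapped (-0.58 ± 0.27, adjusted p = 0.17). Of 11 synthesis genes 1 fell, YUC1 (-0.25 ± 0.08, adjusted p = 0.0434), and 0 rose (median -0.25). That call ended in each of the fits that left out 1 of the 9 libraries, furthest without sibling 3 (-0.19, adjusted p = 0.215). Of 25 auxin-response genes 9 were lower and 2 higher, with a median of -0.26. The GH3 enzymes, which conjugate and inactivate auxin, fell together at GH3.2 (-1.56 ± 0.20), GH3.3 (-0.83 ± 0.18), GH3.5 (-0.95 ± 0.16) and GH3.6 (-1.001 ± 0.19). GH3.6 was at 30.2, 41.3 and 61.1 in Med-E, 81.6, 100 and 105 in C24 and 76.8, 67.1 and 102 in Ler, without overlap. GH3.1 (AT2G14960) was at 0.05 (adjusted p = 0.855), and GH3.4 had 0 counts. IAA19 was at 7.32, 6.06 and 7.71 in Med-E, the C24 level of 7.47 to 7.82, and below the 9.03 to 11.2 of Ler (-0.34 ± 0.10, adjusted p = 0.0247). The IAA19 call ended without Ler A (-0.31, adjusted p = 0.0529), Ler C, sibling 1 or sibling 2 (-0.24, adjusted p = 0.213). IAA2, IAA16 and HAT2 were the other falls, and the growth-promoting SAUR19 and SAUR21 rose by 0.49 ± 0.15 and 0.58 ± 0.18.

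Among 18 brassinosteroid and gibberellin genes 4 fell and 1 rose (median 0.02). GA20OX2, an enzyme that makes gibberellin precursors, was at 0.57, 0.97 and 1.44 CPM in Med-E, 3.45, 6.60 and 8.26 in C24 and 5.03, 4.09 and 4.89 in Ler, a fall of 2.41 ± 0.33 (adjusted p = 1.75e-05). GA3OX1, the enzyme of the last activating step, fell by 1.07 ± 0.20 to 4.80 ± 1.1 CPM from 6.95 ± 2.2 in C24 and 14.7 ± 1.1 in Ler (SD, n = 3). RGL1, a DELLA repressor of gibberellin responses, rose by 0.61 ± 0.11 beyond both parents. CPD, a brassinosteroid synthesis gene overlapping MOS7, fell by 0.82 ± 0.16 and BAS1, a brassinosteroid-inactivating enzyme, by 0.72 ± 0.19. The CPD call ended with the clock covariate (-0.37, adjusted p = 0.197).

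Of 17 cell-wall expansion genes 5 fell and 2 rose, with a median of -0.16. All 5 falls were xyloglucan-modifying XTH genes (XTH4, XTH9, XTH22, XTH24 and XTH33) and both rises were expansins (EXPA3 and EXPA5). XTH33 was at 2.34, 1.97 and 1.46 CPM in Med-E and 3.26, 2.70 and 4.34 in Ler, but 5.37, 11.7 and 35.0 in C24 (-2.01 ± 0.41, adjusted p = 0.00222). XTH9 ranged from 45.8 to 276 in C24 and 77.0 to 241 in Ler and was at 42.6, 55.97 and 42.9 in Med-E (-1.73 ± 0.42, adjusted p = 0.0106). Its call ended without sibling 1 (-1.67, adjusted p = 0.0553), and that of EXPA5 (0.80 ± 0.23) without sibling 1 (0.71, adjusted p = 0.08) or sibling 2. With the clock covariate 1 of the 17 fell and 0 rose.

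**Figure D3:**
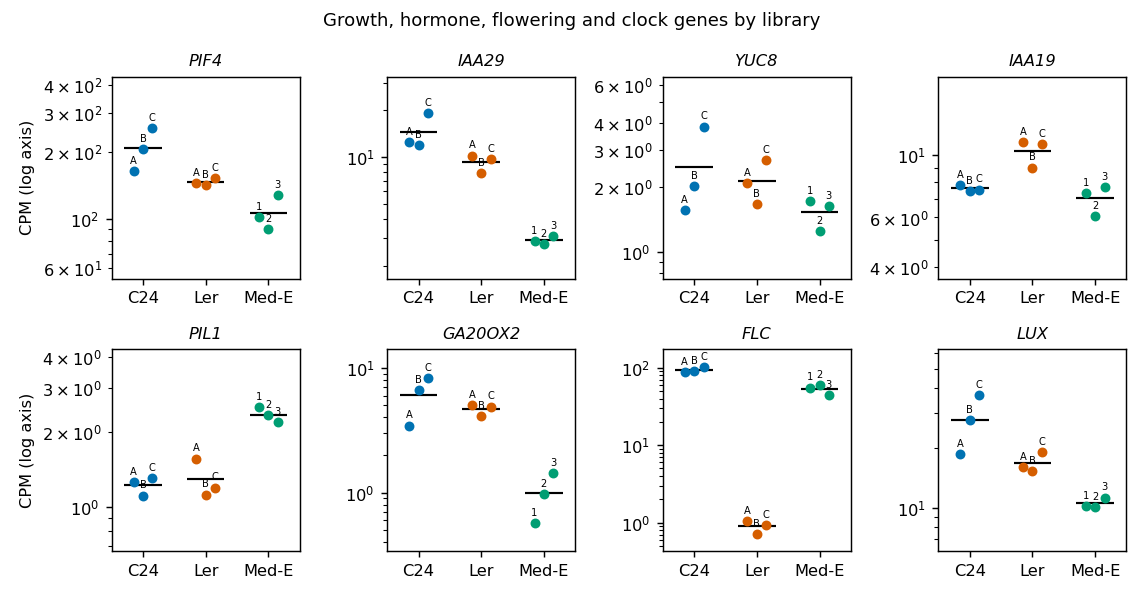
CPM on a log axis in each C24, Ler and Med-E library (points, lettered or numbered by library) with the group mean (black line) for growth, hormone, flowering and clock genes. IAA29, GA20OX2, PIF4 and LUX are below both parents in all 3 Med-E libraries, YUC8 overlaps them, and FLC lies between the parents and near C24 on this axis.

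The clock genes themselves followed the index described above, which was built from them. Of 8 evening genes 3 fell and 0 rose. LUX, an evening-complex factor that represses PIF4 at night, was at 10.2, 10.2 and 11.3 CPM in Med-E, 18.7, 27.6 and 36.8 in C24 and 16.0, 15.4 and 19.2 in Ler (-1.03 ± 0.16, adjusted p = 0.000113), in an overlap with AT3G46650. TOC1 fell by 0.46 ± 0.11 and ELF3 by 0.30 ± 0.09, and both calls ended without sibling 2 (-0.41, adjusted p = 0.0522, and -0.24, adjusted p = 0.213) or sibling 1, ELF3 also without C24 C, Ler B or Ler C. ELF3 overlaps ALPHA-VPE. Of 8 morning genes 2 rose and 1 fell: LHY by 0.35 ± 0.09, PRR9 by 1.303 ± 0.40, and PRR7 down by 0.24 ± 0.07. PRR9 was at 69.8, 49.2 and 34.5 in Med-E, 38.7, 12.4 and 5.19 in C24 and 23.4, 29.5 and 15.8 in Ler, with overlap, and its call ended without sibling 1 (1.01, adjusted p = 0.162), sibling 2, C24 B or Ler C. LHY and PRR7 were not called without sibling 2 (0.28, adjusted p = 0.095, and -0.20, adjusted p = 0.188), nor PRR7 without sibling 3 or Ler C.

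Flowering-time genes gave 7 of 23 higher and 2 lower (median 0.14), among them several repressors of flowering. FLC, the repressor that vernalization silences, was at 55.4, 59.6 and 44.0 CPM in Med-E, 88.6, 91.7 and 102 in C24 and 1.05, 0.72 and 0.93 in Ler. Med-E thus lay between the parents without overlap, below C24 (-0.83, adjusted p = 0.000428) and above Ler. Its rise of 2.53 ± 0.15 against the mean of the logarithms (adjusted p = 2.89e-12) was 0.16 against the arithmetic mid-parent (adjusted p = 0.569), so the call rests on the log scale. FRI, the activator of FLC, overlapping AT4G00651, was at the C24 level and rose by 0.67 ± 0.08, whereas MAF2, an FLC relative, was at the Ler level and rose by 0.43 ± 0.09. The AP2-type repressors TOE1 (0.62 ± 0.13) and SMZ (0.62 ± 0.15, in an overlap with AT3G54980) and the promoters SPL9 and AGL24 also rose. SPL3, a flowering promoter restrained by miR156, was at 17.7, 14.8 and 15.2 in Med-E, 26.3, 25.6 and 36.6 in C24 and 35.7, 28.7 and 29.9 in Ler, and fell by 0.94 ± 0.15 below both parents, in an overlap with AT2G33815. MAF4, another FLC relative, fell by 0.55 ± 0.14. SOC1, a promoter that FLC represses, was at 32.6 ± 6.1 CPM, between C24 (13.3 ± 2.2) and Ler (104 ± 4.7), and was not called against the mid-parent (-0.19, adjusted p = 0.492).

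Where the parents differ strongly, Med-E could be placed between them gene by gene. At 210 genes called between C24 and Ler with a log2 difference of at least 2 and at least 10 CPM in the higher parent, a position was computed that is 0 at the Ler level and 1 at the C24 level of log2(CPM + 0.5). The genes were chosen on the parents only. The smallest difference let in was 2.00 (PYK10) and the largest left out 1.997 (SWEET13). Med-E was on the C24 side (above 0.75) at 86 genes, on the Ler side (below 0.25) at 78 and between at 46. Of the 86 genes 85 were called against Ler and 7 against C24, and of the 78 genes 78 were called against C24 and 8 against Ler. All 3 siblings were above 0.75 at 73 genes and below 0.25 at 71. With a log2 difference of at least 3 required, 60 genes were on the C24 side and 37 on the Ler side. With a difference of at least 1 the balance turned, with 244 of 714 genes on the C24 side and 278 on the Ler side, as it did without C24 A (81 and 93) or without Ler C (83 and 90).

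The sides came in long runs along the chromosomes (coordinates from the TAIR10.1 annotation). Of 158 neighbouring pairs of sided genes 82.3% were on the same side, against 43.9% of pairs on different chromosomes. Some neighbours, such as MRD1 and HEI10 (positions 0.945 and 0.952), are overlapping gene models that may share reads. Such pairs add to the first share. Chromosome 1 was C24-like almost throughout, with 46 genes on the C24 side and 2 on the Ler side, and 39 C24-side genes followed one another from chr1:5875295-26637876. Chromosome 4 began C24-like, with 6 genes at chr4:418327-4809352, and was then Ler-like over 17 genes at chr4:8107254-18152597. Chromosome 5 also began C24-like, with 5 genes at chr5:760319-5923494, and carried 29 Ler-side and 8 C24-side genes in all, 14 of the former in a run at chr5:10320114-21802788. Chromosome 2 was split, with 11 Ler-side genes at chr2:619323-7221890 followed by 7 C24-side genes at chr2:9753631-11137792. Chromosome 3 ended with 7 Ler-side genes at chr3:17437840-23133298. That run began at ASN1, which was below both parents (position -0.43), so its edge is uncertain. The C24-side run of chromosome 2 ended at HSFA2, whose Ler level varied widely (18.4 ± 15.0 CPM, SD, n = 3).

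The first 12 Mb of chromosome 3 differed from these runs. Of 20 genes there, 14 were between the parents, against 32 of the other 189 placed genes, and at 10 of the 20 all 3 siblings were. The 12 Mb boundary was drawn on these same positions, so the contrast only describes them. NSP1, a gene of nitrile formation from glucosinolates, was at 149 CPM, with C24 at 273 and Ler at 59.7, and its siblings were at positions 0.61, 0.61 and 0.59. On the linear CPM scale the median position of the 20 genes was 0.41. At 5 genes, by contrast, the siblings were on opposite sides. AT2G13665 and AT2G13660, which overlap each other, were at 14.1 and 14.2 CPM in sibling 1, 12.8 and 12.9 in sibling 2 and 0.87 and 0.98 in sibling 3, the Ler level. WRKY70, a defence regulator, was at 15.1, 18.1 and 83.7 CPM with C24 at 18.9 and Ler at 80.5, and AHP5 and AT1G66860 were the others.

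**Figure D4:**
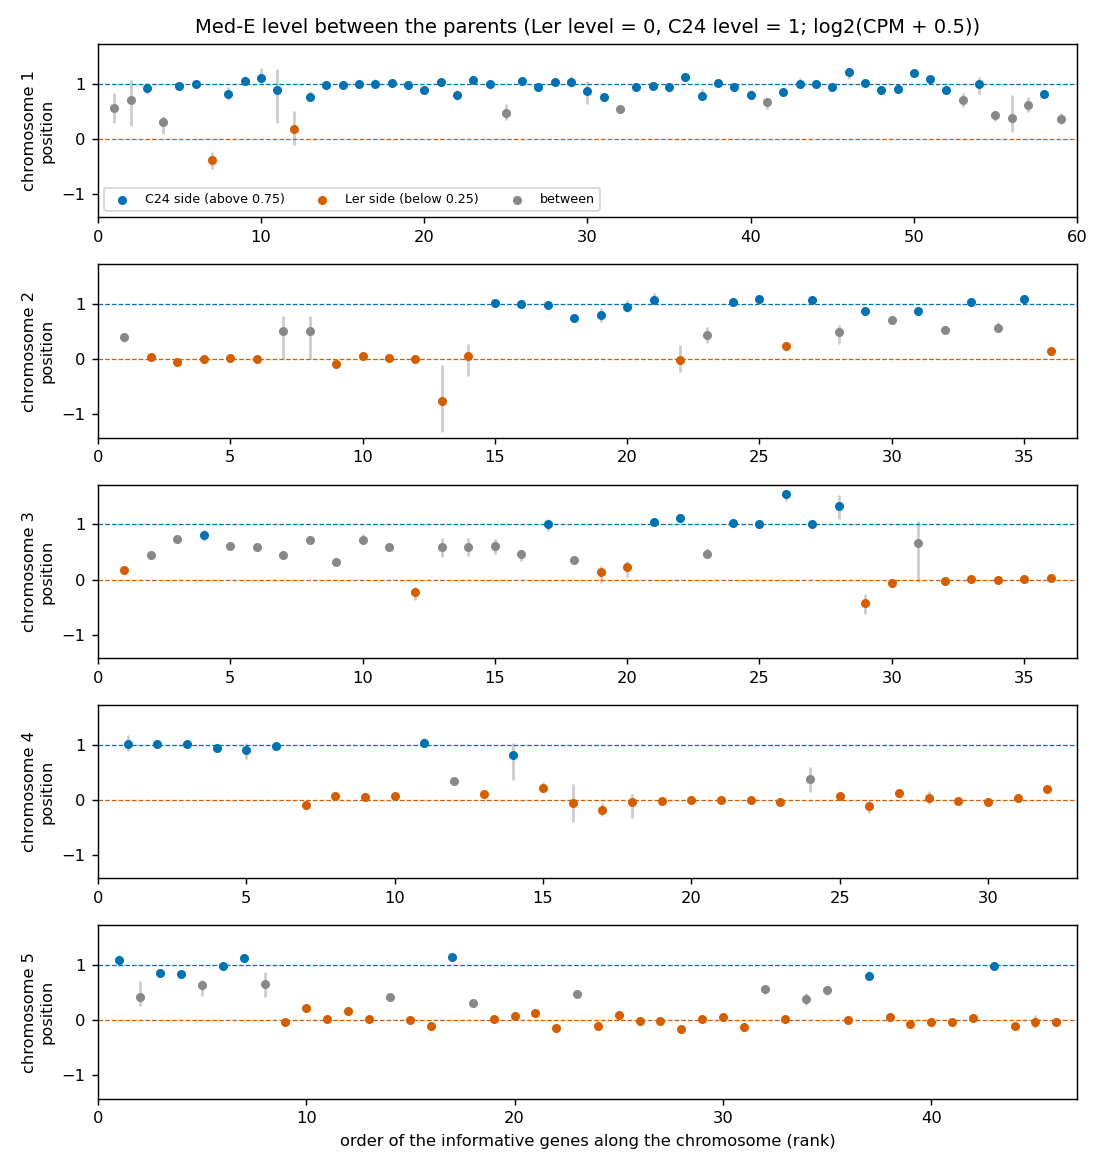
Position of Med-E between the parents (0 is the Ler level, 1 the C24 level, on log2(CPM + 0.5)) at 209 placed genes, in their order along each chromosome. Points are the mean of the 3 siblings, grey bars span the siblings. Chromosome 1 lies near 1, most of chromosomes 4 and 5 near 0, and the first part of chromosome 3 in between.

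Glucosinolate genes lay on both sides. Glucosinolates are sulfur-rich defence compounds whose side chains differ between accessions. AOP2, the enzyme that makes alkenyl side chains, was at 892, 925 and 830 CPM in Med-E, 909, 756 and 686 in C24 and 3.28, 2.52 and 2.27 in Ler. AOP3, its neighbour that makes hydroxyalkyl chains in Ler, was at 1.14, 1.05 and 0.90 in Med-E, 0.86, 1.21 and 1.37 in C24 and 218, 272 and 165 in Ler. Both were thus at the C24 level and differed from Ler (8.36, adjusted p = 2.10e-18, and -7.73, adjusted p = 2.75e-15). On chromosome 5 the reverse held: MAM1, a chain-elongation enzyme, was at 170, 173 and 166 in Med-E, 793, 693 and 720 in C24 and 108, 116 and 107 in Ler, just above Ler. TGG2, a myrosinase that breaks glucosinolates down, was at 31.0, 24.3 and 30.8 in Med-E, 2159, 2131 and 2208 in C24 and 13.3, 11.7 and 10.2 in Ler. Its neighbour and relative TGG1 was at the C24 level instead, at 6690 ± 845 CPM against 5535 ± 306 in C24 and 2938 ± 161 in Ler (SD, n = 3). AOP2 and AOP3, and TGG1 and TGG2, are paralogs, so some reads may have been counted for the wrong member.

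Of 21 aliphatic glucosinolate genes 4 were higher than the mid-parent and 2 lower (median 0.36), the 4 being AOP2, AOP1, MYB28 and MYB29. MYB29, a regulator of the pathway, was at 60.8, 76.0 and 70.7 CPM in Med-E, 67.7, 43.8 and 27.7 in C24 and 16.4, 18.5 and 15.7 in Ler (1.31 ± 0.34, adjusted p = 0.00847). With the clock covariate MYB29 was at 0.47 (adjusted p = 0.514) and 1 of the 21 genes was higher and 2 lower. Against Ler alone 10 of the 21 were higher and 1 lower. In the list of indole glucosinolate and breakdown genes 2 of 8 rose (TGG1 and MYB34) and 2 fell (TGG2 and CYP81F2). MYB34 (0.61 ± 0.17) ended without sibling 2 (0.51, adjusted p = 0.116) or sibling 1, and CYP81F2, at the edge with an adjusted p of 0.0495, ended without 7 of the 9 libraries in turn, as without sibling 1 (-0.86, adjusted p = 0.253). Other strongly split genes were ARGAH2, an arginase gene, at 122, 168 and 135 CPM in Med-E as in Ler (83.5, 125 and 67.0) and at 0.14 to 0.20 in C24. AT1G35115, AT4G07965 and AT4G04692 were at 33.2 ± 1.5, 15.1 ± 2.8 and 22.6 ± 2.8 CPM, close to C24 (26.4, 16.2 and 28.7), and below 0.1 in Ler on average. AT3G61010 was silent as in Ler, at 0.16 ± 0.05 CPM against 47.9 ± 2.0 in C24, and ECS1, AT2G24760 and AT3G44070 were low as in C24, at 0.65, 0.18 and 0.17 CPM on average against 89.4, 27.6 and 21.2 in Ler. AT2G25510 was at 82.2, 99.8 and 269 in Med-E, with sibling 3 apart, and at 181 ± 18 in C24.

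Against the mid-parent, defence and stress lists held few calls, close to or below the background of 14.6%. Against Ler alone, 7 of 13 heat-shock genes and 8 of 28 cold and dehydration genes were lower, and 0 of either were higher. In that comparison 12.8% of all tested genes were called. Ler was uneven at the heat-shock genes, which summed to 62.9 to 511 CPM there and 61.2 to 74.2 in Med-E, so the sums overlapped. The heat-shock count against Ler was not repeated without single libraries. Against the mid-parent 2 of 24 salicylic acid and defence genes fell and 0 rose. They were NPR3, a salicylic acid receptor (-0.93 ± 0.22), and SAG101, a partner of EDS1 (-0.42 ± 0.09), and NPR3 was not called without sibling 1 (-0.70, adjusted p = 0.0715) or sibling 2. PR1, the classical marker of the pathway, was at 3.28, 18.5 and 42.8 CPM in Med-E, 23.2, 20.04 and 25.6 in C24 and 172, 88.7 and 58.6 in Ler, and its spread left it uncalled (-1.20 ± 0.97, adjusted p = 0.502). ICS1, the salicylic acid synthesis enzyme, was at 0.26 ± 0.12 (adjusted p = 0.153). Of 24 jasmonate genes 2 rose, ARGAH2 and JAR1 (0.48 ± 0.12), the latter not without sibling 2 (0.43, adjusted p = 0.0574). The storage protein genes VSP1 and VSP2 did not pass, at 1.29 ± 0.80 and 1.63 ± 0.69.

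Of 28 cold and dehydration genes 4 fell and 0 rose. COR47, a dehydrin gene, was at 113, 86.1 and 126 CPM in Med-E, 224, 192 and 243 in C24 and 422, 380 and 398 in Ler, below both parents without overlap (-1.46 ± 0.16, adjusted p = 1.25e-06). DREB2A, a dehydration and heat factor gene overlapping AT5G05420, fell by 0.997 ± 0.21, also below both. KIN1 (-0.79 ± 0.23) and RD29B (-1.54 ± 0.48) were near C24, and both ended without sibling 2 (-0.68, adjusted p = 0.146, and -1.15, adjusted p = 0.232) or sibling 3, KIN1 also without C24 B, and RD29B also without C24 A, C24 B, Ler A or Ler B. KIN1 has a close copy, KIN2, with which it may share reads. Among 13 heat-shock genes HSP18.2 rose by 0.68 ± 0.16 and HSP21 fell by 0.87 ± 0.27, each at under 4 CPM, and HSP21 was not called without sibling 1 (-0.70, adjusted p = 0.162), sibling 3, C24 C or Ler C. The list median was -0.88, and the list summed to 62.9 to 511 CPM in Ler, 51.5 to 67.6 in C24 and 61.2 to 74.2 in Med-E.

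Of 18 flavonoid genes 3 rose and 0 fell (median 0.33), a share near the 14.6% called over all tested genes. PAP2, an anthocyanin regulator, rose by 0.97 ± 0.24 to 1.85 ± 0.16 CPM (SD, n = 3). MYB111, a flavonol regulator, rose by 1.07 ± 0.23 but not without sibling 2 (0.72, adjusted p = 0.068), and the enzyme gene F3H, overlapping AT3G51238, by 0.96 ± 0.30 but not without sibling 2 (0.88, adjusted p = 0.127), sibling 1, C24 C, Ler B or Ler C. With the clock covariate 0 of the 18 were called.

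Against the mid-parent, leaf growth and tissue markers gave a more even picture. Of 13 leaf growth regulators 4 rose and 1 fell (median 0.10). TCP2, TCP3 (overlapping AT1G53233) and TCP4, factors that end cell division in young leaves, rose by 0.53 ± 0.11, 0.37 ± 0.08 and 0.42 ± 0.09. TCP4 was at 58.6, 61.6 and 50.9 CPM in Med-E, 45.1, 48.2 and 38.5 in C24 and 44.1, 38.9 and 41.2 in Ler, without overlap. GIF1, a growth coactivator, rose by 0.89 ± 0.28 at the Ler level, and GRF3, a growth factor gene overlapping SBE2.1, fell by 0.56 ± 0.11. With the clock covariate 1 of the 13 was higher and 0 lower, and TCP2 (0.23, adjusted p = 0.208), TCP4 (0.34, adjusted p = 0.092) and GRF3 (-0.32, adjusted p = 0.127) were not called. TCP10 and TCP24, of the same family, were at -0.16 and 0.14 (adjusted p = 0.306 and 0.301). Of 20 cell-cycle genes 2 rose (PCNA2, overlapping ENOC, and CDT1A) and 1 fell (CYCD3;2, overlapping AT5G67265), near the 14.6% over all tested genes. None of the 3 was called without sibling 2, with PCNA2 at 0.44 (adjusted p = 0.0544), CDT1A at 0.19 (adjusted p = 0.332) and CYCD3;2 at -0.44 (adjusted p = 0.0686). CDT1A was also not called without C24 C, Ler A or Ler C, and CYCD3;2 without any 1 of C24 B, C24 C, Ler A, Ler C and the other two siblings. Of 31 photosynthesis genes LHCA3 fell (-0.46 ± 0.14) and 0 rose, a call that ended without sibling 2 (-0.40, adjusted p = 0.161), sibling 3, C24 C, Ler A or Ler C. CLV1, a meristem receptor also expressed elsewhere, rose by 0.41 ± 0.09 among 9 shoot meristem genes. FDH, a cuticle synthesis gene, fell by 0.40 ± 0.08 below both parents among 12 epidermal markers. The 8 floral organ, 8 root and 4 phloem markers gave 0 calls against the mid-parent by edgeR. Of the 8 floral organ markers, however, 6 were lower than Ler alone and 0 higher, and 1 was higher than C24 alone and 0 lower. Of the 8 root markers 2 were higher than Ler and 0 lower, and 1 was higher than C24 and 1 lower.

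**Figure D5:**
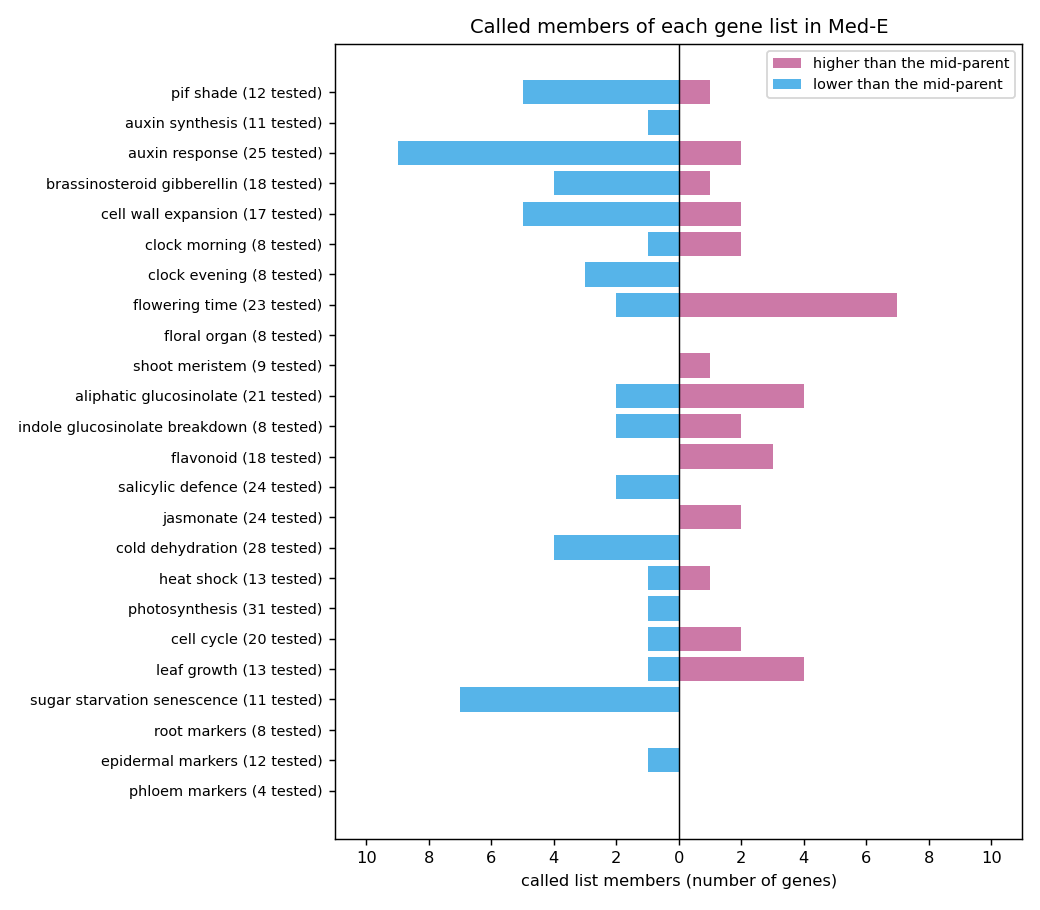
Number of members of each gene list called against the mid-parent in Med-E, higher to the right and lower to the left of 0, with the number tested in brackets. Lower calls exceed higher ones most in the sugar-starvation list (7 and 0) and the auxin-response list (9 and 2), and higher calls exceed lower ones most in the flowering-time list (7 and 2).

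Med-E was then set against the mean of the other F6 lines (Sml-D, Med-F, HM-G, HM-S and HM-W), grown side by side with it. There 4571 genes (15.6%) were higher in Med-E and 4339 (14.8%) lower, 8910 in all (30.4%). Of the 372 genes above both parents 355 (95.4%) were also above the other F6 lines. Of the 535 below both parents 506 (94.6%) were also below them. The same Med-E libraries served both comparisons, so much of this agreement was built in and it is no independent support. ASN1 differed from the other F6 lines by -4.50 (adjusted p = 1.84e-06), DIN10 by -4.54, GPT2 by 3.58 (adjusted p = 9.11e-09) and, among auxin genes, IAA29 by -2.68 (adjusted p = 4.49e-08). These are differences from the mean of 5 lines, which were not alike. ASN1 averaged 3.79 CPM in Sml-D, next to 4.53 in Med-E, 39.4 in Med-F and 323 to 543 in the HM lines. GPT2 averaged 42.3 CPM in Sml-D, against 112 in Med-E and 5.14 to 9.82 in the remaining lines. Of the 11 starvation genes 8 were lower than in the other lines and 0 higher, of 17 cell-wall genes 9 were lower and 3 higher, and of 21 aliphatic glucosinolate genes 18 were higher and 2 lower. YUC8, uncalled against the mid-parent, was lower than in the other F6 lines by 1.33 (adjusted p = 0.000281). Sml-D had a clock index of -2.35 ± 0.08, next to that of Med-E, and the other F6 lines had means of -1.01 to -1.44. PIF4 averaged 107 CPM in Med-E, 108 in Sml-D and 178 to 211 in the remaining F6 lines.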

How the data were processed

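RNA was sequenced from whole aerial tissue in 30 libraries of 10 lines. The authors deposited raw counts per gene model, 1 column per library, and a table of read counts per library, per the file headers. FastQC, DESeq and the build TAIR10 are named in the submitters' processing notes, and the aligner, counting tool and strand setting were not given in the sources used here. Summed gene counts (47182721 to 53484190 in the 9 libraries) exceeded the total reads listed for each library. No column of per-sample values was left unused (0 columns).

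Symbols and positions came from the RefSeq annotation of TAIR10.1, which matched 32742 of 33498 gene models, and 7139 models overlap another counted one. Counts were fitted with edgeR 4.0.16 in R 4.3.3 (glmQLFit and glmQLFTest, TMM factors 0.943 to 1.08, filterByExpr with a minimum count of 10, 29268 genes kept) over all 30 libraries with 1 coefficient per line. Med-E was set against the average of both parental coefficients, against each parent and against the mean of the other 5 F6 lines, with Benjamini-Hochberg adjustment over all genes tested. A gene was placed beyond both parents when called against the mid-parent, C24 and Ler in the same direction. Positions between the parents used group means of log2(CPM + 0.5). In data simulated on these libraries (29077 genes), 91 of 100 genes changed by a log2 of 1 and 100 of 100 changed by 2 were recovered against the mid-parent, with 10 false calls. The simulated parents did not differ from each other, and counts were drawn independently for each library. Parental differences and deviations shared between libraries were thus absent, so these figures do not give the error rate in the real data.

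The line, the gene lists and the clock index were chosen with earlier results of these data known. Named genes were PIF4, YUC8, IAA19, IAA29, ICS1, PR1 and FLC, the 10 largest rises and falls beyond both parents (at least 10 CPM, no overlap of libraries), up to 4 called members of each list, and the 5 genes with the largest C24 and Ler excess. Other list members are named to complete a list's count. The TPS, SnRK1, bZIP and sulfur genes, STP1, WRKY70, NSP1, AHP5 and the sibling-split genes were chosen after their values were seen. So was the 12 Mb boundary on chromosome 3. ESM1 was not analysed here. Alternatives were DESeq2 1.42.0, RLE factors, no filter, the 9 libraries alone, a replicate block, the clock index as a covariate, an arithmetic mid-parent, and leaving out each library.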

Additional observations from a re-analysis of the deposited data

Results flagged for a closer look

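Each gene here was picked out because its difference from the mid-parent in Med-E itself differed from that in the mean of the other 5 F6 lines, by the contrast of Med-E with those lines (edgeR quasi-likelihood test, adjusted p under 0.05). The same parents serve both sides and cancel in the contrast, so its value is the log2 difference between Med-E and the mean of the other F6 lines.

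Among the growth genes, that difference was -0.70 for PIF4, -1.33 for YUC8, -0.65 for IAA19 and -2.68 for IAA29. The other F6 lines were on average above the mid-parent at YUC8 (0.75), IAA19 (0.32) and IAA29 (0.69), while their PIF4 was at -0.02. FLC differed by 2.06, with the other F6 lines at 0.47 against the mid-parent.

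Among the rises, the difference was 3.58 for GPT2, 4.24 for AT2G15020, 2.80 for DAR4, 2.68 for LSU2 and 2.79 for BBX18. It was 1.79 for CSLA10, 1.65 for AT1G66540, 1.35 for AT5G15948 and 1.35 for AT5G15950, which are 1 signal, and 1.24 for GALS3. AT2G15020 and BBX18 were below the mid-parent in the mean of the other F6 lines (-1.71 and -1.29), but Sml-D averaged 33.9 and 33.3 CPM, above both parents. Sml-D was also next to Med-E at LSU2, with 24.4 and 26.8 CPM. DAR4 averaged 53.95 CPM in Med-E, 41.2 in Sml-D, 47.3 in Med-F and 2.15 to 2.62 in the HM lines.

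Among the falls, the difference was -4.50 for ASN1, -4.54 for DIN10, -4.44 for BXL1, -3.46 for XTH22 and -3.62 for AT4G36850. It was -3.31 for AT2G33830, -2.39 for BT2, -2.47 for TPS11 and -2.82 for AT5G22920. For ASN1, Sml-D averaged 3.79 CPM and Med-E 4.53. AT5G27345 differed by -1.73, and there the mean of the other F6 lines was also below the mid-parent (-1.75), while HM-S averaged 90.02 CPM.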

How the results depend on the processing

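Of 87 called named genes 0 changed sign under the alternatives run. The balance of higher and lower calls against the mid-parent, 2196 and 2066 as reported, turned with DESeq2 (2229 and 2324), RLE factors (2105 and 2123), the clock covariate (701 and 783) and the arithmetic mid-parent (1775 and 2365). With the clock index as a covariate the calls were 1484 against the mid-parent, 230 beyond both parents and 1545 against C24. Without both parental C libraries, an alternative chosen after seeing the data, they were 2726 against the mid-parent and 444 beyond both parents. Leaving out each library in turn gave 2451 to 4639 calls against the mid-parent, 490 to 1024 beyond both parents, 3520 to 5722 against C24 and 2588 to 3884 against Ler, and a C24 share of sided genes of 46.6% to 54.4%. That share was 52.4% as reported, 61.9% when a parental log2 difference of at least 3 was required and 46.7% with at least 1. DESeq2 called 4553 genes against the mid-parent and 1043 beyond both parents. The arithmetic mid-parent gave 4140 calls, 42.9% of them higher, against 51.5% on the log scale. The causes of these changes were not tested.

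The labels do not say whether parental letters pair the libraries. Deviations from the group means correlated at 0.275 for the A libraries, -0.107 for B and 0.571 for C. The C libraries of both parents thus shared deviations, and the A libraries less so. The main fit did not include the letters. With a replicate block 4488 genes were called against the mid-parent, 1081 beyond both parents, 5879 against C24 and 3958 against Ler. Of 87 called named genes, 37 were not called with the clock covariate, 22 without sibling 2, 17 without both parental C libraries, 12 in the 9 libraries alone and 3 with the block.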
